A study of Mus musculus with 8 samples.

Results

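The 10 genes described here belong to the NRF2 antioxidant response, the thioredoxin system, the metallothioneins and iron storage: Nfe2l2, Keap1, Nqo1, Hmox1, Srxn1, Txnrd1, Txnip, Mt1, Mt2 and Fth1. They were chosen by name and not by a threshold on their values, but with earlier results of these data known. Each matched 1 of the 34899 genes in the deposited table. RNA had been sequenced from CD45- CD31+ cells that flow cytometry had sorted from the lungs of female mice of the strain C57BL6, a gate that keeps cells with the endothelial surface protein CD31 and leaves out those with the leukocyte protein CD45. The comparison was between 4 HF libraries and 4 LF libraries, from 4 mice in each group per the series' design text. The labels do not spell out HF or LF and give no age, agent or allele for either group. The libraries shared the strain, the sex, the tissue and the sort, and nothing in the labels says whether mice shared a cage, a litter or a sorting day. All values below are normalised counts, which are not scaled for gene length, unless a level per kb is named.

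NRF2, the product of Nfe2l2, is a transcription factor that drives genes for antioxidant and detoxifying enzymes. Under resting conditions KEAP1 binds it and hands it to a ubiquitin ligase for degradation. Oxidants and electrophiles modify KEAP1, and NRF2 then collects in the nucleus and binds antioxidant response elements together with small MAF proteins, so its activity is set largely at the protein level and is read through target genes. TXNIP binds reduced thioredoxin and blocks it, and its gene is known to follow glucose through MondoA. Metallothioneins bind zinc and copper and are induced by metals through MTF1 and by glucocorticoids. Ferritin heavy chain oxidises iron for storage, and its translation is held back by iron regulatory proteins that bind a hairpin in the messenger RNA. In lung endothelium these systems are studied for the handling of oxygen, heme and inhaled oxidants.

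Library totals were 10631506 to 20781564 reads, the lowest in LF 1 and the highest in HF 4. On the first principal component of all tested genes, which held 36.1% of the variance, LF 1 and LF 2 lay at -56.4 and -50.9 and the other 6 libraries between -6.79 and 39.6. LF 3 and LF 4 stood apart on the second component, which held 17.5%. HF was therefore also set against LF 3 and LF 4 alone and against LF 1 and LF 2 alone, pairs that were formed from the data and are not groups of the study. Endothelial markers were abundant, with summed values of 162601 to 183369 in HF and 120205 to 198064 in LF. Markers of other cells were also read, none of them at 0 in every library. Tested markers of leukocytes (6 of 6), macrophages (6 of 6), erythroid cells (5 of 5) and fibroblasts or mural cells (8 of 8) had a lower mean log2 value in HF, as did 7 of 8 of alveolar and airway epithelium. In such bulk samples, fewer cells of a type and less RNA per cell cannot be told apart.

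No member passed the test with all 8 libraries. The test was limma's on log2(normalised count + 1), with a Benjamini-Hochberg adjusted p under 0.05 over the 17067 genes that reached 10 normalised counts in 4 or more libraries. It called 0 of those genes (0%), and 1882 (11.0%) had an unadjusted p under 0.05. Of the 10 members, 9 were tested and each of those was above 10 in every library, while Mt2 was below the minimum. Their mean log2 values were higher in HF for 5 (as for 53.2% of all tested genes) and lower for 4, with a median log2 difference of 0.06 against 0.02 over all tested genes. Counts of genes higher or lower in HF are of mean log2 values throughout, as in the test. Keap1 is among the 5 that were higher, and its difference turned to -0.05 with quantile normalisation. Of the 9, Txnip, higher in HF, and Mt1, lower in HF, had an unadjusted p under 0.05, against 6.36% of tested genes that were higher and 4.67% that were lower. The groups did not overlap for 3 members, Txnip with HF above LF, and Mt1 and Fth1 with HF below LF, and over all tested genes they did not overlap for 5.43%, 3.47% with HF above and 1.96% with HF below. The p-values set the difference between the groups against the spread of these libraries within each group, which limma estimates partly from all tested genes.

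**Figure D1:**
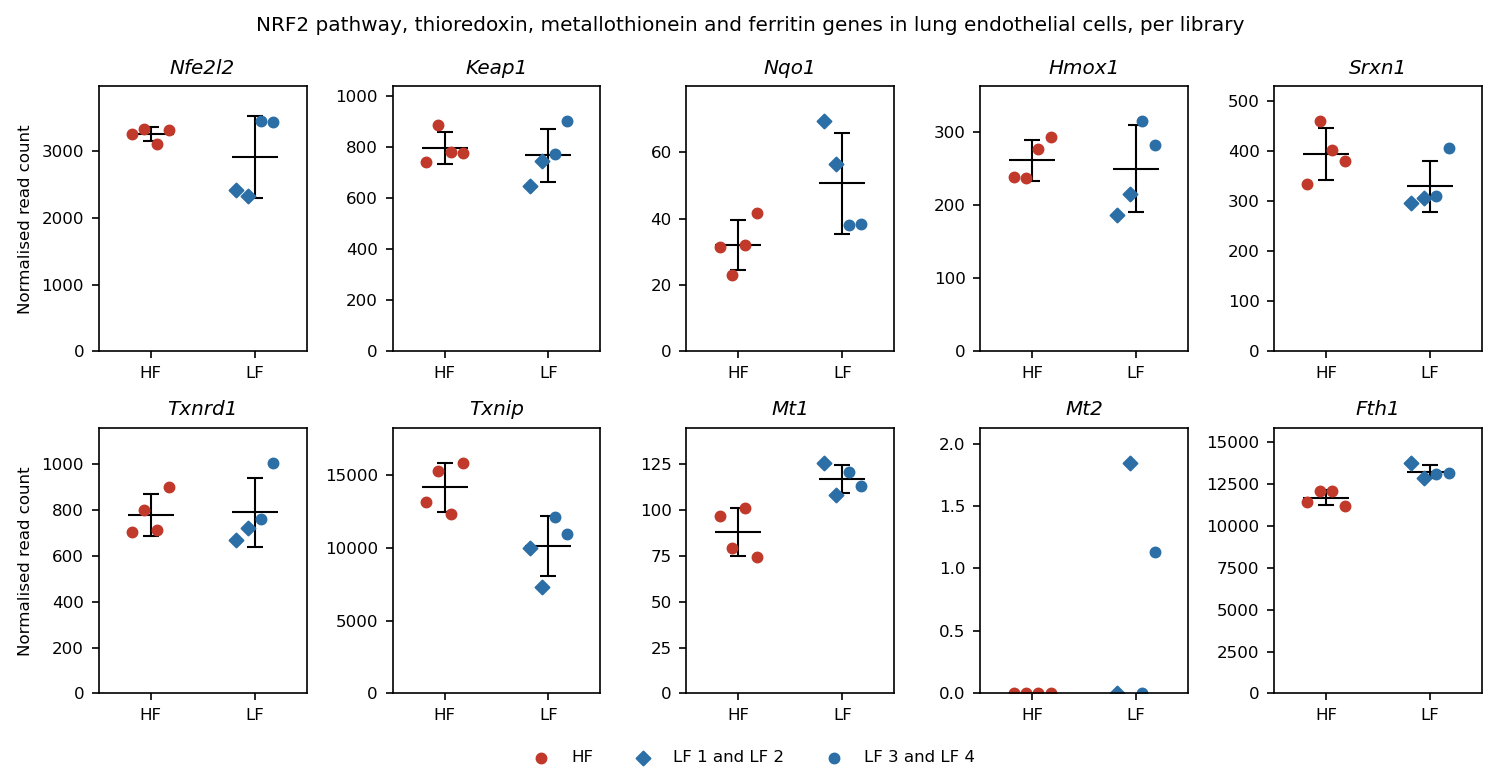
Normalised counts of the members in each library (vertical axes, 1 panel for each gene), with HF libraries on the left and LF libraries on the right; points are libraries and bars are means with SD, with LF 1 and LF 2 as diamonds. Txnip is the panel in which every HF library lies above every LF library, and Mt1 and Fth1 are those in which every HF library lies below.

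Nfe2l2 (chr2:75675513-75704641 on the minus strand, GRCm38), which encodes NRF2, had 3257, 3330.0, 3103 and 3316 normalised counts in HF 1 to 4, against 2418, 2327, 3452 and 3429 in LF 1 to 4. The HF libraries lay close together, and the LF libraries split, LF 1 and LF 2 below all HF libraries and LF 3 and LF 4 above all of them. The means were 3252 ± 104 in HF and 2906 ± 618 in LF (SD, n = 4 each), a fold of 1.14 with a 95% interval of 0.911 to 1.42 and an adjusted p of 0.649 in limma. Against LF 3 and LF 4 alone, the log2 difference was -0.08 (limma adjusted p = 0.799). Against LF 1 and LF 2 alone, it was 0.45 (limma adjusted p = 0.0091), past the threshold in a fit that called 20.0% of all tested genes, 14.0% higher in HF. The direction of Nfe2l2 thus depended on which LF libraries were compared.

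Keap1 (chr9:21229730-21239361, minus strand), the adaptor that targets NRF2 for degradation, had 741, 887, 781 and 776 in HF, against 649, 744, 772 and 904 in LF. Both groups covered much the same range. The means were 796 ± 63.1 in HF and 767 ± 105 in LF (SD, n = 4 each), a fold of 1.04 (95% interval 0.859 to 1.27, limma adjusted p = 0.862). The gene Gm16754 lies on the opposite strand over 510 exonic bases of Keap1, 10.9% of them, with means of 10.4 in HF and 19.0 in LF. The sources used here do not say whether the counting used strand, so reads in that overlap cannot be assigned to a strand. The ratio of Nfe2l2 to Keap1 on levels per kb was 5.07 ± 0.36 in HF and 4.67 ± 0.679 in LF (SD, n = 4 each), with overlapping values.

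Nqo1 (chr8:107388225-107403206, minus strand), the quinone reductase often used as a readout of NRF2 activity, was the lowest of the tested members per kb. It had 31.5, 23.1, 32.1 and 41.7 in HF, against 69.5, 56.3, 38.1 and 38.4 in LF. The highest values were in LF 1 and LF 2, and HF 4 lay above LF 3 and LF 4, so the groups overlapped. The means were 32.1 ± 7.62 in HF and 50.6 ± 15.2 in LF (SD, n = 4 each), a fold of 0.649 (0.416 to 1.01) with a limma p of 0.0559 and an adjusted p of 0.461. The log2 difference was -0.28 against LF 3 and LF 4 alone (adjusted p = 0.824 in limma). It was -0.97 against LF 1 and LF 2 alone (adjusted p = 0.0585 in limma). Epithelial markers were also lower in HF on average, with summed values of 7835 to 14257 in HF and 9722 to 19066 in LF. Their median log2 difference was 0.11 against LF 3 and LF 4 alone and -0.89 against LF 1 and LF 2 alone. Their part in the Nqo1 values was not tested.

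Hmox1 (chr8:75093621-75100589, plus strand) encodes heme oxygenase 1, which opens the heme ring and releases iron. It had 239, 237, 277 and 294 in HF, against 187, 215, 316 and 283 in LF, and the groups overlapped, with LF 1 and LF 2 the lowest libraries and LF 3 the highest. The fold was 1.06 (95% interval 0.807 to 1.40, limma adjusted p = 0.856). Its log2 difference was -0.20 against LF 3 and LF 4 alone and 0.38 against LF 1 and LF 2 alone (adjusted p = 0.699 and 0.124 in limma). Macrophages are a known source of Hmox1, and their markers summed to 3589 to 6602 in HF and 6603 to 9038 in LF, 6 of 6 tested markers with a lower mean log2 value in HF. Their part in the Hmox1 values was not tested.

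Srxn1 (chr2:152105516-152111376, plus strand) encodes sulfiredoxin, which restores overoxidised peroxiredoxins. Its values were 335, 461, 402 and 381 in HF, against 296, 308, 310.1 and 406 in LF. LF 4 lay well above the other LF libraries and above HF 1, HF 3 and HF 4, and without it the groups did not overlap. The means were 395 ± 52.2 in HF and 330.0 ± 51.0 in LF (SD, n = 4 each), a fold of 1.20 (95% interval 0.952 to 1.51, limma adjusted p = 0.548). The log2 difference kept its sign in both smaller comparisons, at 0.14 against LF 3 and LF 4 alone and 0.38 against LF 1 and LF 2 alone, and neither passed the threshold.

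Txnrd1 (chr10:82833951-82897712, plus strand), the cytosolic thioredoxin reductase, had 703, 802, 714 and 899.6 in HF, against 667, 723, 761 and 1006 in LF. The groups covered the same range, with LF 4 the highest library. The means were 779.6 ± 91.3 in HF and 789 ± 150 in LF (SD, n = 4 each), a fold of 0.995 (95% interval 0.797 to 1.242, limma adjusted p = 0.989). The log2 difference was -0.17 against LF 3 and LF 4 alone and 0.16 against LF 1 and LF 2 alone.

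Txnip (chr3:96557957-96561883, plus strand), the inhibitor of thioredoxin, was the member with the smallest p. It had 13134, 15267, 12284 and 15833 in HF, against 9986, 7301, 12131 and 10933 in LF. Every HF library was above every LF library, by a narrow margin between HF 3 and LF 3, and LF 2 was the lowest. The means were 14129 ± 1693 in HF and 10088 ± 2055 in LF (SD, n = 4 each), a fold of 1.42 (1.09 to 1.83) with a limma p of 0.0122 and an adjusted p of 0.309. The difference is larger than the SD within either group, but it does not hold up once all genes are adjusted for. In the authors' deposited table, Txnip had a log2 fold change of 0.49 and an adjusted p of 0.117, where 2.04% of genes were below 0.05. Against LF 3 and LF 4 alone, the log2 difference of Txnip in limma was 0.29 (adjusted p = 0.305), and that fit called 3.76% of tested genes and 0 of the 9 members. Against LF 1 and LF 2 alone, it was 0.72 (limma adjusted p = 0.0091), so Txnip and Nfe2l2 were called there, 2 of 9 members in a fit that called 20.0% of all tested genes. The gene Gm15441 on the opposite strand overlaps 606 exonic bases of Txnip, 19.4% of them, and its means of 41.1 in HF and 49.8 in LF are small beside those of Txnip. Of 10 endothelial markers, 9 also had a higher mean log2 value in HF, and the groups overlapped for each of these 9. The other, Erg, was lower in HF, with a fold of 0.750 and every HF library below every LF library. None of the 10 passed the threshold with all libraries. The median log2 difference of these 10 was -0.07 against LF 3 and LF 4 alone and 0.44 against LF 1 and LF 2 alone. Their part in the Txnip values was not tested.

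Mt1 (chr8:94179082-94180327, plus strand), metallothionein 1, had 96.5, 79.1, 101 and 74.0 in HF, against 126, 108, 120.4 and 113 in LF. Every HF library was below every LF library, and HF 3 and LF 2 were the closest. The means were 87.7 ± 13.1 in HF and 117 ± 7.78 in LF (SD, n = 4 each), a fold of 0.748 (0.564 to 0.991) with a limma p of 0.0438 and an adjusted p of 0.436. Unlike most members, Mt1 did not split within LF, where LF 1 and LF 2 averaged 117 and LF 3 and LF 4 also averaged 117. The log2 difference was -0.42 against either pair of LF libraries alone, with adjusted p in limma of 0.481 against LF 3 and LF 4 and 0.211 against LF 1 and LF 2. Markers of fibroblasts and mural cells, 8 of 8 with a lower mean log2 value in HF, summed to 2205 to 3888 in HF and 2933 to 5540 in LF, and their part in the Mt1 values was not tested.

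Mt2 (chr8:94172664-94173568, plus strand), metallothionein 2, lies just before Mt1 and was nearly unread. It had 0 reads in all 4 HF libraries, out of 69516755 reads in all, and with 3 reads taken as the limit that a count of 0 allows, the level is at most 0.0432 reads per 1000000. In LF it had 3 reads, 2 in LF 2 and 1 in LF 4, out of 55766292, a level of 0.0538 per 1000000 with an exact Clopper-Pearson 95% interval of 0.0111 to 0.157. These intervals and limits cover counting error only. No fold or difference is given, since so few reads could not show one. In the same libraries Mt1 had 822 reads, Mt3 3 and Mt4 1. Gm45774, a gene with 1 exon on the opposite strand, covers 432 of the 588 exonic bases of Mt2, 73.5% of them, and itself had 3 reads, while Mt1 shares no exonic base with another gene. Of 45 protein-coding genes of which 70% or more of the exonic bases are covered on the opposite strand, the median level was 3.02 normalised counts per kb and 13 (28.9%) had a mean under 1, against a median of 29.5 and 2193 (16.4%) among 13393 genes with no such overlap. The 4868 genes with a smaller overlap, under 50%, went the other way, with a median of 58.5 and 336 (6.9%) under 1. Of the 147 genes covered over 50% or more, which include the 45, the median was 8.02 and 28 (19.0%) were under 1. Whether overlap with Gm45774 lowered the count of Mt2 was not tested.

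**Figure D2:**
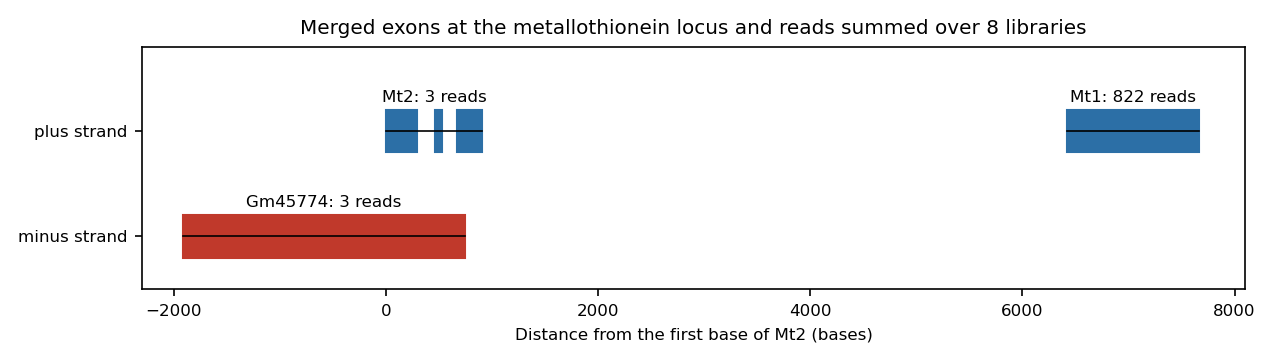
Exons of Mt2, Mt1 and Gm45774 by strand (rows) with their reads summed over the 8 libraries, against the distance from the start of Mt2 in bases (horizontal axis). The only exon of Gm45774 on the minus strand runs over most exonic bases of Mt2 and none of Mt1.

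Promoters of the pair are shown because both genes answer the same metal-sensing factor and were read so differently. Sequence comes from RefSeq (GRCm38.p6), and 9 of 10 members matched there, with 11 windows of up to 250 bases before an annotated start. A window stops at the first base in any annotated exon of its gene, so it can miss the promoter of a shorter form. The Fth1 window lies at chr19:9980350-9980597, and the hairpin of Fth1 at chr19:9982730-9982759. That window may therefore not border the start of the transcript with the hairpin. Capitals mark matches, on either strand, to TGCACNC or TGCGCNC, the core of the metal response element, and to TGACNNNGC, the core of the antioxidant response element. Of 32851 promoters, 21.4% held the metal core and 10.2% the antioxidant core within 250 bases. The Mt2 window (chr8:94172368-94172617, plus strand) held 3 metal cores and 1 antioxidant core, and the Mt1 window (chr8:94178839-94179081, plus strand) 1 metal core. Mt1 has long annotated forms, so its window may end before the promoter of its main transcript. The counts of cores therefore do not compare the whole promoters of the pair.
Mt1: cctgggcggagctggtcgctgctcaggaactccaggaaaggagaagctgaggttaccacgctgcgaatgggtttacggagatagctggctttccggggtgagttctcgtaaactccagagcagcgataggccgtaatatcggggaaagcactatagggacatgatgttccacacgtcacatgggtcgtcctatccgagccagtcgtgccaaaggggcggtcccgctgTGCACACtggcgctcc
Mt2: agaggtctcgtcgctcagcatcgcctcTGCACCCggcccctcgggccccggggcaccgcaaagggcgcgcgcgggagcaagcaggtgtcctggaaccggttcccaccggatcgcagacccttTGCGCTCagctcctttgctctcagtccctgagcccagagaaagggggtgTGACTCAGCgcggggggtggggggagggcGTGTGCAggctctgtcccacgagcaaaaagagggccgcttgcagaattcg

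The antioxidant core was also found in the window of Nfe2l2 and in 1 of 3 windows of Txnrd1, where it lies on the minus strand (chr10:82858956-82859178, plus strand shown). The Txnrd1 window is printed because it belongs to an enzyme that NRF2 is known to drive and whose values overlapped between HF and LF.
Txnrd1: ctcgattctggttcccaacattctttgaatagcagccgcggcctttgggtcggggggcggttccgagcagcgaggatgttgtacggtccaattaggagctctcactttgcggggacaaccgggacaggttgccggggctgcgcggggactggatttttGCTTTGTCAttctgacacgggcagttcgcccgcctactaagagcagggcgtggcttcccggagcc
Metal cores were also found in Srxn1 and Txnip. None of the 9 members with a window held the exact E-box CACGTG, which 6.02% of promoters did. Looser forms of the E-box were not searched, and the Txnip window holds CACGAG in a repeat. All matches given here are of letters only.

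Fth1 (chr19:9980598-9985098, plus strand), the ferritin heavy chain, had 11420.4, 12113, 12079 and 11191 in HF, against 13792, 12886, 13108 and 13196 in LF. Every HF library was below every LF library, and of the tested members Fth1 varied least over the 8 libraries, with an SD of 0.11 on the log2 scale. The means were 11701 ± 465.8 in HF and 13245 ± 387 in LF (SD, n = 4 each), a fold of 0.883 (0.737 to 1.06) with a limma p of 0.161 and an adjusted p of 0.594. Limma's moderated test takes part of its variance from all other genes, so the interval is wider than the spread of Fth1 alone would give. DESeq2 on the recovered reads gave a p of 0.0219 and an adjusted p of 0.267, in a test that called 2.17% of genes. Like Mt1, Fth1 did not split within LF, and its log2 difference was -0.17 against LF 3 and LF 4 alone and -0.19 against LF 1 and LF 2 alone. The processed copies Fth-ps2 and Fth-ps3 had means of 24.2 and 12.2 over all libraries, and reads of near-identical copies can be misassigned. Erythroid cells and macrophages are rich in ferritin, and all 5 erythroid markers, which summed to 21332 to 23997 in HF and 23686 to 43433 in LF, had a lower mean log2 value in HF, as had 6 of 6 tested macrophage markers. The median log2 difference of the erythroid markers was -0.76 against LF 3 and LF 4 alone and -0.07 against LF 1 and LF 2 alone. The part of either cell type in the Fth1 values was not tested.

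Both ferritin chains are held by the same kind of hairpin, an iron responsive element in the 5′ untranslated region, and their sites are printed because the groups did not overlap for Fth1 and did for Ftl1. Capitals mark the bulged C and, 5 bases after it, the loop CAGTGN, a pattern that was found in the 5′ untranslated region of 2603 of 21181 genes (12.3%). The sites lie at chr19:9982730-9982759 on the plus strand and chr7:45459780-45459809 on the minus strand of GRCm38.
Fth1: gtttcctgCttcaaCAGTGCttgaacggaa
Ftl1: gtgtcttgCttcaaCAGTGTttgaacggaa
Ftl1, the ferritin light chain, averaged 8496 ± 499 in HF and 8588 ± 913 in LF (SD, n = 4 each), a fold of 0.992 (95% interval 0.820 to 1.20, limma adjusted p = 0.977). On levels per kb, the ratio of Fth1 to Ftl1 was 0.534 ± 0.0415 in HF and 0.602 ± 0.0766 in LF, with overlapping values. The size of this ratio depends on the merged exon lengths, 3469 bases for Fth1, which include long alternative forms, and 1340 for Ftl1. In normalised counts Fth1 was above Ftl1, with means over all libraries of 12473 and 8542.

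**Figure D3:**
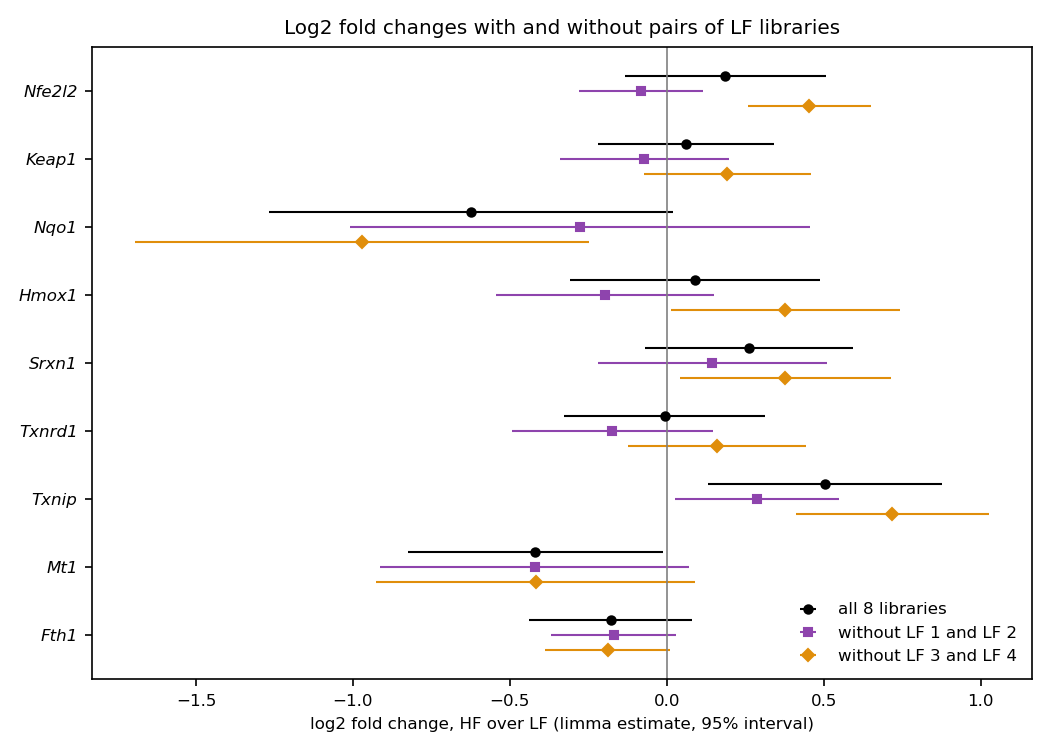
Log2 difference of HF over LF for the 9 tested members (horizontal axis, with 95% intervals from limma) with all 8 libraries and without each pair of LF libraries. The values for Mt1 and Fth1 stay together, whereas those of Nfe2l2, Hmox1 and Nqo1 are spread.

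On levels per kb of merged exons, the order of the members over all libraries was Txnip (3877 normalised counts per kb), Fth1 (3596), Nfe2l2 (811), Keap1 (167), Hmox1 (146), Srxn1 (129), Txnrd1 (111), Mt1 (82.1), Nqo1 (26.6) and Mt2 (0.633). Txnip and Fth1 ranked 129 and 142 among all tested genes. Merged exons include every annotated transcript form, so a gene with long alternative forms, as Mt1 and Fth1 have, is set lower than its main transcript would be. The ratio of Txnip to Fth1 was 1.28, 1.40, 1.13 and 1.57 in HF 1 to 4, against 0.804, 0.629, 1.03 and 0.920 in LF 1 to 4. Per kb of merged exons, Txnip was thus the higher in every HF library and in LF 3. In normalised counts this held for the HF libraries but not for LF 3 (12131 for Txnip and 13108 for Fth1). From Keap1 through Hmox1 and Srxn1 to Txnrd1, the range of each gene overlapped that of the next in both groups. In HF the ends of that order did not overlap, with 158 to 189 per kb for Keap1 and 99.2 to 127 for Txnrd1. The ratio of Txnip to Txnrd1 was 41.1 ± 1.98 in HF and 29.4 ± 6.62 in LF, and that of Txnip to Txn1, the cytosolic thioredoxin, 1.81 ± 0.302 in HF and 1.28 ± 0.066 in LF (SD, n = 4 each).

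**Figure D4:**
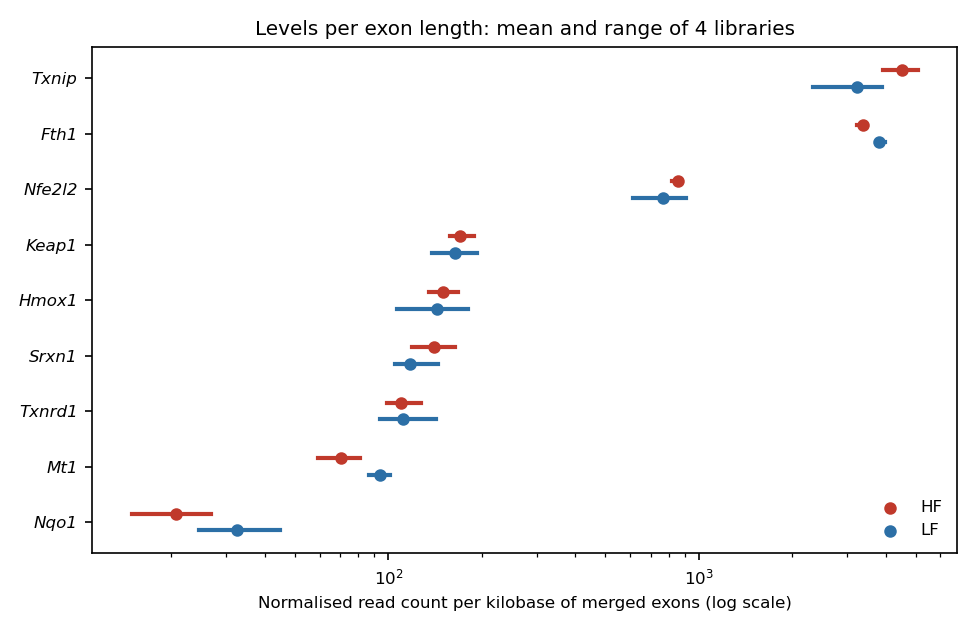
Normalised count per kb of merged exons (log axis) for the 9 tested members, HF above LF in each row; points are means of 4 libraries and lines run from the lowest to the highest library. Txnip and Fth1 lie far above the rest, and from Keap1 to Txnrd1 the line of each gene overlaps that of the next in both groups.

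Within LF, the ratio of the mean of LF 3 and LF 4 to that of LF 1 and LF 2 was 1.49 for Hmox1, 1.45 for Nfe2l2, 1.33 for Txnip, 1.27 for Txnrd1, 1.20 for Keap1 and 1.19 for Srxn1. It was 0.608 for Nqo1, 0.999 for Mt1 and 0.986 for Fth1. The 3 members whose groups did not overlap thus include the 2 with almost no such split. Patterns over the 8 libraries were compared by the root mean square difference of log2 values centred on each gene's mean. The closest pairs of members were Keap1 and Txnrd1 (0.121), Keap1 and Srxn1 (0.127) and Nfe2l2 and Hmox1 (0.139), and the farthest was Nqo1 and Txnip (0.728). The genes closest to Txnip, whose own SD over the libraries was 0.358, were Lpl (0.0688), Mterf4 (0.0924) and Hilpda (0.097). Those closest to Mt1 (SD 0.272) were Cd63 (0.0745), Zmat3 (0.0959) and Fam98b (0.0966), and those closest to Nqo1 (SD 0.485) were Zfp651 (0.175), Chd3 (0.175) and Kif26b (0.187).

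Among 13 regulators of NRF2, 12 had a higher mean log2 value in HF and 1 a lower, their median log2 difference was 0.15, and none passed the threshold. Maff, a small MAF partner of NRF2, averaged 333 ± 60.3 in HF and 227 ± 26.7 in LF (SD, n = 4 each), a fold of 1.46 with a limma adjusted p of 0.263. Syvn1, a ubiquitin ligase that acts on NRF2, and the related factor Nfe2l1 had folds of 1.22 and 0.868 (limma adjusted p = 0.523 and 0.594). The median of these regulators was -0.02 against LF 3 and LF 4 alone and 0.40 against LF 1 and LF 2 alone, so the sign, like that of Nfe2l2, depended on the LF libraries. Of 20 other NRF2 target enzymes and NADPH suppliers, 13 had a higher mean log2 value in HF and 7 a lower, with a median difference of 0.12, which was -0.06 against LF 3 and LF 4 alone and 0.27 against the other pair. Gsr, glutathione reductase, had a fold of 1.47 (1.13 to 1.89), Gclm, the modifier subunit of the enzyme for the first step of glutathione synthesis, 1.76 (1.18 to 2.63), and Ephx1, an epoxide hydrolase, 1.33 (1.05 to 1.67), with limma adjusted p of 0.253, 0.285 and 0.352. Gclc, the catalytic partner of Gclm, had a fold of 1.58. Against LF 3 and LF 4 alone, Gsr, Gclm and Gclc were called higher in HF, in a fit that called 3.09% of tested genes higher. None of the 3 passed against LF 1 and LF 2 alone (limma adjusted p = 0.146, 0.245 and 0.451), where 14.0% of tested genes were called higher. Aldh3a1 and Slc7a11, a target aldehyde dehydrogenase and the cystine transporter, had folds of 0.381 and 0.567 at low levels.

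In the thioredoxin system, all 10 tested genes beside the members had a higher mean log2 value in HF, with a median log2 difference of 0.14. This median was -0.15 against LF 3 and LF 4 alone and 0.37 against LF 1 and LF 2 alone. In those fits 1 and 4 of the 10 genes were called higher, against 3.09% and 14.0% of all tested genes. Txndc5, a disulfide isomerase, had a fold of 1.31 and a limma adjusted p of 0.308, Sesn2 a fold of 1.18 and Txnl1 a fold of 1.14. Among arrestin relatives of Txnip and its MondoA regulators, 5 of 6 tested genes had a higher mean log2 value in HF, with a median of 0.10. This median was 0.15 against LF 3 and LF 4 alone and 0.13 against LF 1 and LF 2 alone. Arrdc2 had a fold of 1.56 (limma adjusted p = 0.441), Arrdc3 1.16 and Mlx, the partner of MondoA, 1.11. The log2 difference of Arrdc2 was 1.20 against LF 3 and LF 4 alone (limma adjusted p = 0.0090) and 0.08 against LF 1 and LF 2 alone. Arrdc4, the relative most often named with Txnip as a glucose-responsive gene, had a fold of 0.949. Its log2 difference was -0.34 against LF 3 and LF 4 alone and 0.19 against LF 1 and LF 2 alone.

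Of 21 genes of iron and heme handling, 13 had a higher mean log2 value in HF and 8 a lower, with a median of 0.08. This median was -0.10 against LF 3 and LF 4 alone and 0.12 against LF 1 and LF 2 alone. Cp, the copper-dependent ferroxidase ceruloplasmin, had a fold of 0.679 (0.495 to 0.930), Tfrc, the transferrin receptor, 0.734 (0.561 to 0.960) and Pcbp1, an iron chaperone, 1.39 (1.04 to 1.87), with limma adjusted p of 0.352, 0.385 and 0.394. Of 7 tested genes of zinc handling and the metal response, 5 had a higher mean log2 value in HF, with a median of 0.13, which was -0.04 against LF 3 and LF 4 alone and 0.30 against the other pair. Slc30a5, a zinc transporter of the Golgi, had 1549, 1658, 1427 and 1653 in HF, against 1129, 1084, 1000.6 and 1066 in LF. All HF libraries were above all LF libraries, a fold of 1.47 (95% interval 1.25 to 1.72, limma adjusted p = 0.143), and it was past the threshold against either pair of LF libraries alone. Slc30a4, another zinc transporter, had a fold of 1.31, Slc39a1, a zinc importer, 0.821, and Mtf1, the metal-sensing factor, 1.02.

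**Figure D5:**
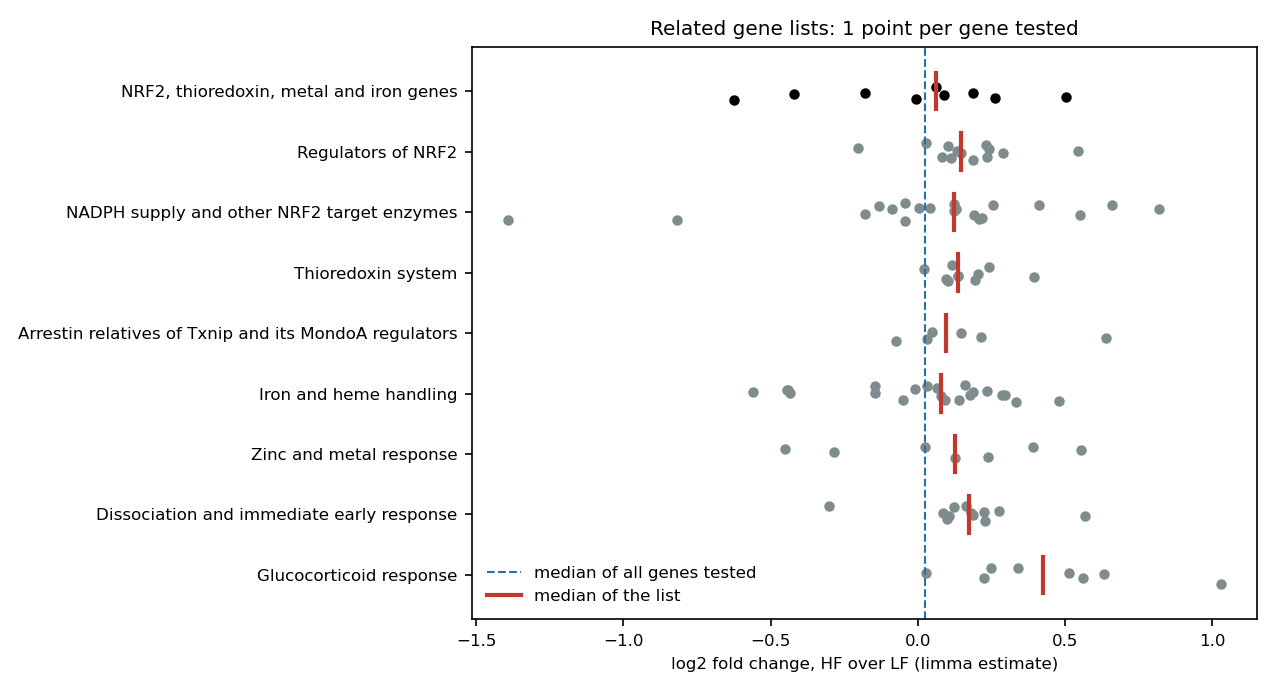
Log2 difference of HF over LF (horizontal axis) for each tested gene of the members and the related gene lists (rows); points are genes, bars are list medians and the dashed line is the median of all tested genes, 0.02. The highest list median is that of the glucocorticoid response, 0.42, and the tested members have 0.06. The lists were chosen with earlier results of these data known, so their order is no independent result.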

How the data were processed

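RNA of sorted lung endothelial cells was measured by bulk sequencing in 4 HF and 4 LF libraries. TRIzol LS was used for the RNA and a SMART-Seq kit for the libraries, per the labels' protocols. STAR 2.6.1b, featureCounts 2.0.0 and DESeq2 1.24.0 come from the submitters' processing notes. The build, annotation and strand setting of the authors' counting were not given in the sources used here. For each gene and library the authors deposited a normalised count, a signal not scaled for length. The deposited table also holds, per the file headers, the authors' log2 fold change and its error, a Wald score, and a p-value before and after adjustment. Each deposited value was a whole number of reads divided by the library's size factor, and within 0.01 of a read 100% of the recovered reads came out whole. All 34899 gene IDs matched GENCODE M21 (GRCm38), and 0 columns of per-sample values lacked a sample.

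The main test was limma 3.58.1 with a trended variance, on log2(normalised count + 1), two-sided, with no covariates and with Benjamini-Hochberg adjustment over 17067 genes; folds on this scale understate changes of low genes. edgeR 4.0.16 and DESeq2 1.42.0 (R 4.3.3) on the recovered reads were alternatives, 18 in all, and 2 more, each leaving out 2 LF libraries, were chosen after seeing the data. The members and the lists (14 besides the members, 155 genes in all) were chosen with earlier results of these data known. Named genes are the members, up to 3 genes of each list with the smallest p, and the 3 genes closest in pattern to the 3 most variable members. Ftl1, Txn1, Gclc, Aldh3a1, Slc7a11, Arrdc4, Mtf1, Sgk1, Fkbp5, Zbtb16, the overlapping genes, the other metallothioneins and the processed copies were named after their values were seen.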

Additional observations from a re-analysis of the deposited data

Results flagged for a closer look

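Srxn1 was 406 normalised counts in LF 4, far from the other LF libraries, which lay at 296 to 310.1: the gap to the nearest was 0.875 of the group's range, against a critical value of 0.829. It was the only 1 of 18 groups (9 tested members in HF and LF) to stand out this way, and chance flags about 1 in 20.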

How the results depend on the processing

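The setting that changed only the threshold, to 0.10, reused the main fit and could move no estimate. With all libraries the smallest limma adjusted p of a member was 0.309, so a change of side had little room. Of 161 results for members under 18 other settings, 155 kept their direction and their side of the threshold. The other 6 did not: Keap1 was -0.046 on the log2 scale with quantile normalisation and -0.016 without LF 1, Hmox1 was -0.040 without LF 1, and Txnrd1, which is -0.01 with all libraries, was 0.04 without HF 1, 0.03 without HF 3 and 0.12 without LF 4. Leaving out 1 library at a time, Txnip was 0.36 to 0.60, Mt1 -0.49 to -0.34, Fth1 -0.20 to -0.16 and Nqo1 -0.76 to -0.46, and of those with a reversal Keap1 was -0.016 to 0.14, Hmox1 -0.040 to 0.21 and Txnrd1 -0.082 to 0.12. The count of genes called was 0 with all libraries, 0 with edgeR (1905 at an unadjusted p under 0.05), 313 with DESeq2, 1 with no filter, and 0 to 1 leaving out 1 library, where 1 was called without LF 2 and 1 without LF 4. Without LF 1 and LF 2 it was 641, and without LF 3 and LF 4 it was 3421. In those 2 fits, chosen after seeing the data, Nfe2l2 was -0.082 and 0.45, Keap1 -0.072 and 0.19, Hmox1 -0.20 and 0.38, and Txnrd1 -0.17 and 0.16; the cause was not tested. Nqo1 had no value with a mean of at least 50. With the replicate block, 0 genes were called and 1810 had an unadjusted p under 0.05. Same-numbered libraries correlated by 0.115, -0.222, -0.143 and 0.185, so the numbers were not taken to pair the samples. The few reads limit what can be said of Mt2, and whether its overlap with Gm45774 lowered the count was not tested.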

Other observations

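Beside the members, glucocorticoid response genes had a higher mean log2 value in HF in 8 of 8 tested genes, with a median log2 difference of 0.42 that was 0.48 against LF 3 and LF 4 alone and 0.49 against LF 1 and LF 2 alone. The list was chosen with earlier results of these data known. Zbtb16 differed by only 0.03. Single genes turned sign in the smaller comparisons. Sgk1 was -0.05 against LF 3 and LF 4 alone, and Fkbp5 was -0.29 and Zbtb16 -0.54 against LF 1 and LF 2 alone. Cebpd, a transcription factor of the response, averaged 7212 ± 1311 in HF and 3678 ± 1347 in LF (SD, n = 4 each), a fold of 2.04 with a limma adjusted p of 0.163 and no overlap. Per1, a clock gene, had a fold of 1.43 without overlap, and Tsc22d3, a glucocorticoid-induced inhibitor of inflammation, a fold of 1.47 with overlap. None of the 8 genes passed the threshold with all 8 libraries. Cebpd passed it in limma against LF 3 and LF 4 alone (adjusted p = 0.0023) and against LF 1 and LF 2 alone (adjusted p = 0.0243). In those fits 1 and 3 of the 8 genes were called higher, against 3.09% and 14.0% of all tested genes.

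Immediate early genes, which dissociation of tissue is known to induce, had a higher mean log2 value in HF in 11 of 12 tested genes, with a median of 0.17. Dusp1, a phosphatase of MAP kinases, averaged 31881 ± 1605 in HF and 21702 ± 3205 in LF (SD, n = 4 each), a fold of 1.48 without overlap and with a limma adjusted p of 0.209. It passed the threshold in limma against LF 3 and LF 4 alone (adjusted p = 0.0083) and against LF 1 and LF 2 alone (adjusted p = 0.0159). Fosb had a fold of 0.812 and Ier3 of 1.21. The median of the list was 0.01 against LF 3 and LF 4 alone and 0.38 against LF 1 and LF 2 alone. In those fits 1 and 5 of the 12 genes were called higher, against 3.09% and 14.0% of all tested genes.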
